A study of Mus musculus with 8 samples.

Results

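The immediate early genes described here are 10 genes, Fos, Fosb, Jun, Junb, Jund, Egr1, Ier2, Atf3, Dusp1 and Btg2, followed across 20 clusters of cells from mouse dorsal root ganglia, the ganglia that hold the cell bodies of the body's sensory neurons. They were taken by symbol from a table of cluster markers, and all 10 were found among its 9229 genes. Their levels were highest in clusters that carry markers of non-neuronal cells and lower in the clusters named as neurons. Relative to the mean of all cells, the median level of the 10 genes was 2.13 in the clusters named Unknown, 0.564 in the named neuron clusters and 0.423 in the clusters named Low.UMI.

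The study sorted living ganglion cells by antibody labelling of a surface proteasome, the neuronal membrane proteasome (NMP), and sequenced the sorted cells in droplets with 3' end counting. The NMP-positive and NMP-negative groups have 4 samples each in the labels, and these are sequencing lanes of 1 library per group, so there were no biological replicates. Both groups came from C57BL/6 mice 21 to 30 days old, with the ganglia of 4 mice pooled, and no other genotype or drug separates them. All cells passed through the same steps: enzyme digestion for 20 min and then 15 min at 37 °C with Liberase and, in the later step, papain, trituration, 30 min with an antibody to proteasome subunit-B5, 40 min with a fluorescent secondary antibody, and sorting. There was no sample without this handling. The extraction protocol names a procedure for nuclei, and the labels leave it unclear whether nuclei or whole cells were loaded. The table compares each cluster with all other cells and has no column for sample or group, so the genes could not be compared between NMP-positive and NMP-negative cells.

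Immediate early genes are transcribed within minutes of a stimulus from factors that are already present in the cell, without new protein synthesis. Growth factors, calcium entry, depolarisation and cell stress reach them through mitogen-activated kinases, the serum response factor and the cyclic AMP response element binding protein. In sensory ganglia, Fos and Egr1 are widely used as signs of recent activity, and Atf3 and Jun as signs of nerve injury. Enzymatic dissociation of tissue at body temperature is known to raise many of these transcripts.

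RefSeq promoter windows were matched for 8 of the 10 genes. No window was matched for Egr1 or Ier2. The 250 bases before the transcription start (mouse build GRCm38.p6, read 5' to 3' on the gene's strand) are shown for 5 genes. Fos had the highest ratio of level between Unknown and neuron clusters. The patterns of Fosb and Junb were nearly the same, and those of Atf3 and Dusp1 were the least like the others. Capitals mark matches to the short cyclic AMP response element TGACG (or CGTCA on the other strand), the full element TGACGTCA, which contains the short form on both strands, the EGR site GCGNGGGCG and the TATA box TATAAA.
Fos (chr12:85473640-85473889, plus strand): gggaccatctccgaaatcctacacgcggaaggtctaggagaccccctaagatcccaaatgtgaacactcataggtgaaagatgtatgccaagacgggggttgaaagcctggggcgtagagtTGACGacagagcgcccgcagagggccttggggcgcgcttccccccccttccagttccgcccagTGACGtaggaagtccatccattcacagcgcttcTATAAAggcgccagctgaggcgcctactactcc
Fosb (chr7:19310046-19310295, minus strand): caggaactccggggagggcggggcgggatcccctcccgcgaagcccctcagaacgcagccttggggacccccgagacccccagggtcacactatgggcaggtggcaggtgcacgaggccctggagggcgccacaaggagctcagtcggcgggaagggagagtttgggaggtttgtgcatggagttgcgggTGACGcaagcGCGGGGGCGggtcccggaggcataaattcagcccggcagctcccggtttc
Junb (chr8:84978749-84978998, minus strand): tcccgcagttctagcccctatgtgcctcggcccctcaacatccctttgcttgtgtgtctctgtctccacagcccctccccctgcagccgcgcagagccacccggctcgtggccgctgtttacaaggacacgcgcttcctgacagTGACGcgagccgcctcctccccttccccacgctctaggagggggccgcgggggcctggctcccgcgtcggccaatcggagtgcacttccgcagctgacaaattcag
Atf3 (chr1:191183334-191183583, minus strand): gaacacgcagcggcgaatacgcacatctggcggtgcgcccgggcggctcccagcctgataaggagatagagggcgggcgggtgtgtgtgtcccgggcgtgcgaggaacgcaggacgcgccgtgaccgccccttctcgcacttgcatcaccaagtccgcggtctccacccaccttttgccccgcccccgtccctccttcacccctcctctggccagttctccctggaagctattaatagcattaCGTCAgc
Dusp1 (chr17:26508473-26508722, minus strand): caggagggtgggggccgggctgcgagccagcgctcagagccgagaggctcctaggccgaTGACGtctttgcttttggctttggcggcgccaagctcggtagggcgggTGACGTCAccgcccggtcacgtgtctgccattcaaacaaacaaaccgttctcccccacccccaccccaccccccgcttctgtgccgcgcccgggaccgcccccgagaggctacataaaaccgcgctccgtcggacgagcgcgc

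Each motif was searched on both strands. The short element was found in 6 of the 8 windows (Fos, Fosb, Junb, Atf3, Dusp1 and Btg2), against 17.8% of all 32851 promoter windows of this length. The Fos window held it at 2 places, and the full element lay in the windows of Dusp1 and Btg2, against 1.55% of all windows. The EGR site was found for Fosb and Btg2, against 4.70% of all windows, and the TATA box for Fos, against 12.4%. A heat shock element, GAANNTTC, was found for Jun, against 6.69%. The AP-1 site TGANTCA (6.75% of all windows) and the CArG box (1.47%), the binding sequence of the serum response factor, were in none of the 8, which says only that these letters are not in these windows. In 7 of the 8 windows the share of G and C exceeded the median of 52.4% over all windows, up to 73.2% for Btg2, while Jund had 47.6%. These matches are descriptions of sequence, and no binding was measured.

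For each gene and cluster the authors' deposited table gives an average log2 fold change against all other cells and the percentage of cells in which the gene was detected. A gene is called higher or lower here where the authors' adjusted p-value was under 0.05. That p treats cells as units, and the clusters were made from the same expression values, so the call is a filter and not a test of a condition. To put all clusters on a single reference, each fold change was turned into a relative level. The share of cells in each cluster served as weight. A relative level is the level in the cluster divided by the mean over all cells, both including the offset in the authors' fold change. Such an offset shows in genes without a positive cell. In Low.UMI.LTMR the authors' deposited table gave Nfkbiz and Zfp36l1 0.0% positive cells, with log2 fold changes of -0.93 and -1.19. The offset draws relative levels towards 1, most for genes of low level. A relative level of 1 is the mean of all cells. Of 200 pairs of gene and cluster, 137 were listed and 63 were not. A pair that is not listed was close to the other cells, or missed the authors' p limit, or was rare, and is not read as absent. The values have no replicate spread, so the order of clusters with close values is not resolved.

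The clusters are called by the authors' names. The 10 named neuron clusters held 40.8% of cells, the 3 Low.UMI clusters 28.6% and the 7 Unknown clusters 30.7%. Every Unknown cluster had all 8 general neuron markers lower. Endothelial markers were higher in Unknown.1 (8 of 8), satellite glia markers in Unknown.2 (7 of 7), mural markers in Unknown.3 (7 of 7), Schwann cell markers in Unknown.4 (7 of 7), fibroblast markers in Unknown.5 and Unknown.6 (7 of 7 each) and macrophage markers in Unknown 488p (8 of 8). The labels name all samples as neurons. Among 12 nuclear and mitochondrial transcripts used as signs of RNA quality, all 12 were lower in each Low.UMI cluster. In the authors' deposited table the log2 fold changes of the nuclear RNA Malat1 there were -4.20 in Low.UMI.LTMR, -4.20 in Low.UMI.Pep and -3.81 in Low.UMI.Nonpep.

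Of the 70 pairs of the 10 genes with an Unknown cluster, 43 were higher and 4 lower, where 10.2% of all pairs were higher and 27.1% lower. In Unknown.1, 10 of 10 genes were higher, against 18.0% of all genes. The counts were 8 in Unknown.2 (13.0% of all genes), 9 in Unknown.3 (8.05%) and 8 in Unknown.6 (7.39%), with none lower in these 4 clusters. These are the clusters with endothelial, satellite glia, mural and, in Unknown.6, fibroblast markers. The other 3 clusters were mixed. Unknown.4 had 4 higher (5.21%) and 1 lower (26.4%), Unknown 488p had 3 higher (9.91%) and 2 lower (33.0%), and Unknown.5 had 1 higher (9.67%) and 1 lower (20.4%). Unknown.5 and Unknown.6 both carry the fibroblast markers, yet 8 of the 10 genes were listed for Unknown.6 and 2 for Unknown.5.

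In the named neuron clusters, 2 of 100 pairs were higher and 32 lower, where 10.9% of all pairs were higher and 6.72% lower. Of the 54 listed pairs, 20 did not pass the filter, among them Egr1 in Non-peptidergic with a log2 fold change of -2.19. Peptidergic 488p had 10 of 10 genes lower (13.8% of all genes) and LTMR 7 (8.46%). Non-peptidergic and SST had 4 lower each (9.71% and 10.7%). CGRP-e, CGRP-n and Cold.sen had 2 lower each (5.65%, 4.32% and 5.44%), and CGRP-a had 1 (7.26%). No gene of the set was called in CGRP-z or Heat.sen, with 1 and 5 of the 10 listed. The 2 pairs called higher were Dusp1 in CGRP-a and Atf3 in SST, where 12.5% and 12.5% of all genes were higher. In the Low.UMI clusters all 30 pairs were lower and none higher, where 20.6% of all pairs were lower and 10.9% higher. By cluster, the share of all genes that were lower was 20.1% for Low.UMI.LTMR, 20.7% for Low.UMI.Pep and 21.0% for Low.UMI.Nonpep.

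**Figure D1:**
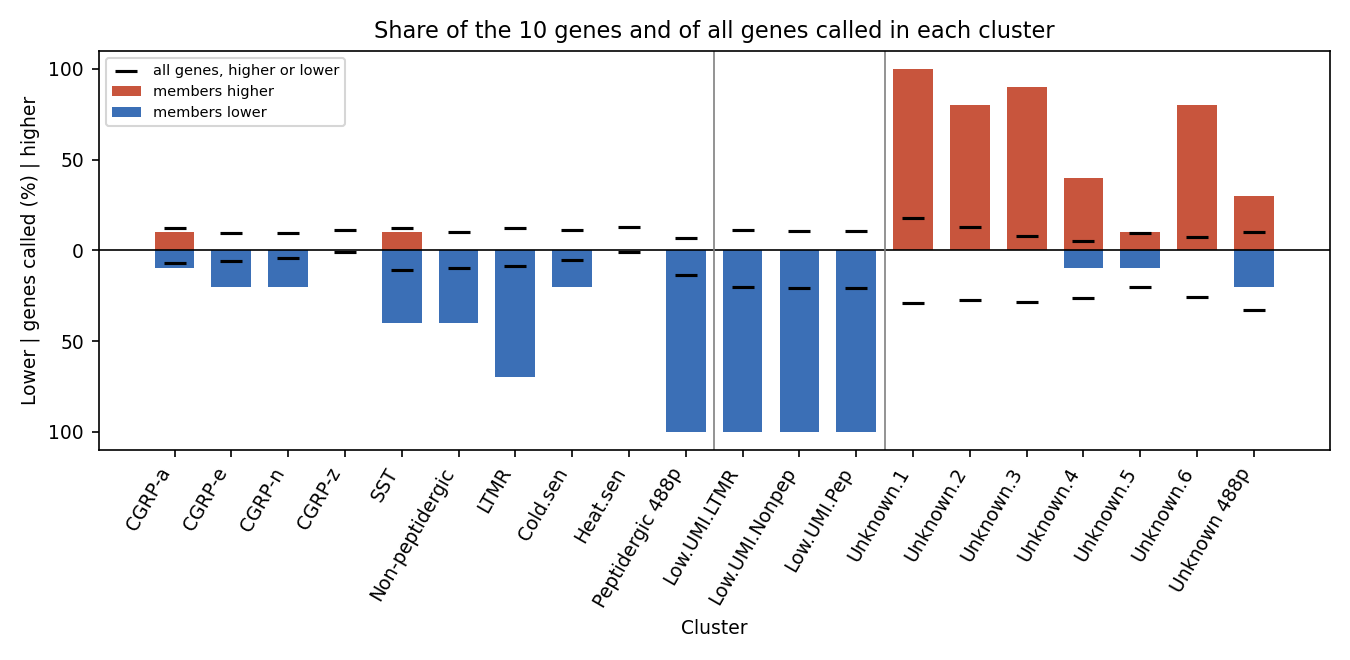
Percentage of the 10 immediate early genes (bars) and of all 9229 genes (black ticks) called higher (upward) or lower (downward) in each of the 20 clusters at the authors' adjusted p under 0.05. All 10 genes were lower in Peptidergic 488p and in each Low.UMI cluster, and all 10 were higher in Unknown.1.

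**Figure D2:**
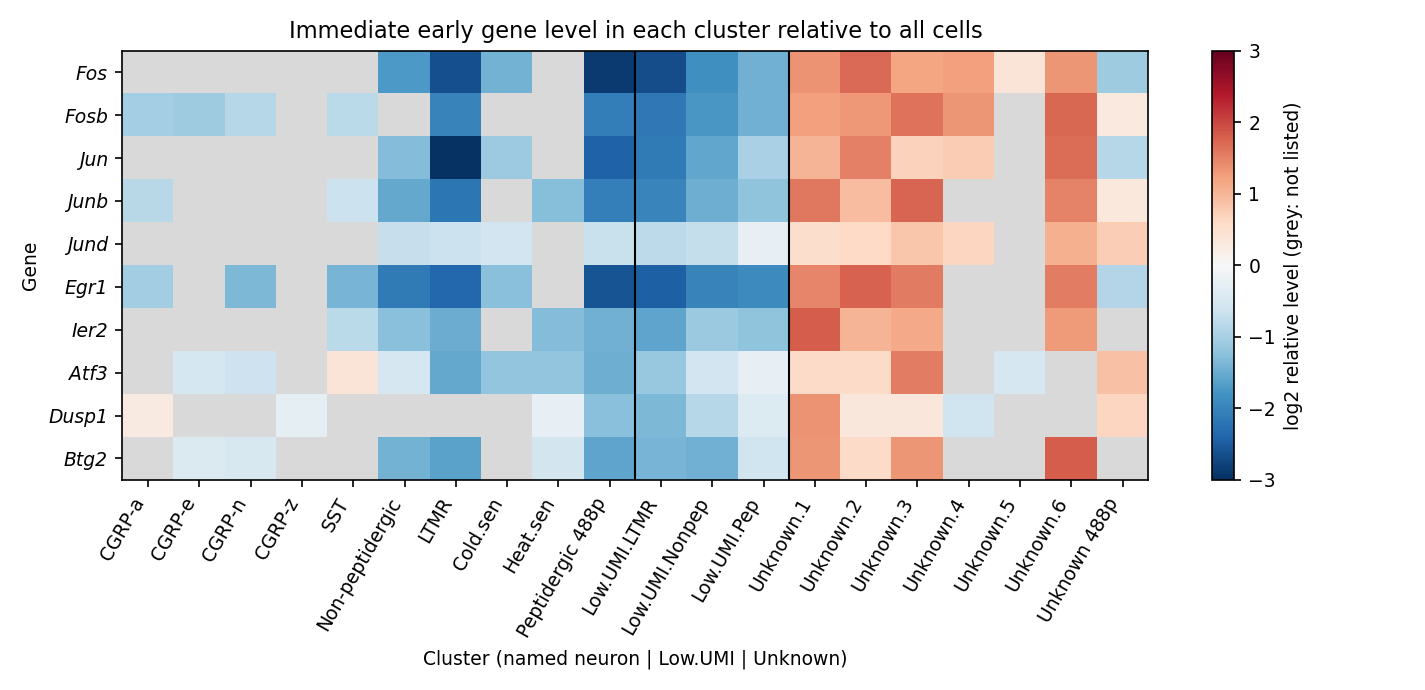
Log2 relative level of each gene (rows) in each cluster (columns, grouped as named neuron, Low.UMI and Unknown), where 0 is the mean of all cells and grey marks pairs that were not listed. Red fills most of Unknown.1, Unknown.2, Unknown.3 and Unknown.6, and the darkest blue cells are Jun in LTMR (relative level 0.129) and Fos in Peptidergic 488p (0.137).

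Fos, Fosb, Jun, Junb and Jund encode the AP-1 factors, which bind DNA as pairs of a Fos and a Jun protein or of Jun proteins. Fos is the member most used as an activity marker. Its relative level was 3.27 in Unknown.2, 2.55 in Unknown.1, 2.49 in Unknown.6, 2.35 in Unknown.4, 2.27 in Unknown.3 and 1.31 in Unknown.5, all 6 called higher. All 4 listed neuron clusters lay below the mean of all cells, at 0.376 in Cold.sen, 0.302 in Non-peptidergic, 0.160 in LTMR and 0.137 in Peptidergic 488p, and the latter 2 were called lower. The range from Unknown.2 to Peptidergic 488p was 23.9-fold. The 6 neuron clusters without a listing had a combined relative level of 0.442, so they too lay together below the mean of all cells. Without a listing, none of them is called lower. Unknown 488p, at 0.481, was the only Unknown cluster below the mean of all cells and did not pass the filter.

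The share of cells with a Fos transcript did not follow this order. In the authors' deposited table Fos was found in 99.4% of LTMR cells, 98.8% of Non-peptidergic cells and 91.6% of Cold.sen cells, against 95.5% in Unknown.2 and 96.0% in Unknown.1. Peptidergic 488p was the exception among neurons, with 39.8% in the authors' deposited table. The 6 neuron clusters without a listing had Fos in 95.4% of their cells. LTMR and Unknown.2 were close in the share of Fos-positive cells, while the relative level was 0.160 in the former and 3.27 in the latter. Detection in droplets alone does not show that a cell expresses a gene, since free RNA from other cells can also be counted. Apoe, a satellite glia marker chosen here after its values were seen, was found in 89.3% of LTMR cells, 88.1% of Non-peptidergic cells and 11.9% of SST cells in the authors' deposited table, at relative levels of 0.029, 0.022 and 0.018. The 5 satellite glia markers listed for LTMR ranged from 2.6% to 98.1% of cells in the authors' deposited table. Median depths are not given, and the part of free RNA in the detection of the 10 genes in neurons was not tested.

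Fosb, a Fos relative with slower and longer-lasting products, was highest in Unknown.6 at 3.28, followed by Unknown.3 at 3.07, Unknown.4 at 2.52, Unknown.2 at 2.47 and Unknown.1 at 2.36, while its 1.22 in Unknown 488p did not pass the filter. In neurons it was 0.573 in SST, 0.552 in CGRP-n, 0.492 in CGRP-a, 0.476 in CGRP-e, 0.251 in LTMR and 0.236 in Peptidergic 488p, of which CGRP-a and CGRP-e did not pass the filter. The lowest cluster was Low.UMI.LTMR at 0.228, 14.4-fold below Unknown.6.

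Jun, which is induced by stress kinases and by axon injury, had a span of 24.9-fold between its highest and lowest cluster, against 23.9-fold for Fos. Its relative level was 3.22 in Unknown.6, 2.84 in Unknown.2, 2.02 in Unknown.1, 1.68 in Unknown.4 and 1.62 in Unknown.3, all called higher, while in Unknown 488p Jun was lower at 0.549. All 4 listed neuron clusters were called lower, with 0.470 in Cold.sen, 0.408 in Non-peptidergic, 0.186 in Peptidergic 488p and 0.129 in LTMR. The authors' deposited table gave a log2 fold change of -3.00 for Jun in LTMR, although 86.7% of LTMR cells and 76.2% of other cells had the transcript. The clusters without a listing, 6 of neurons and Unknown.5, had a combined relative level of 0.808, nearer to the mean of all cells than for Fos.

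Junb, the partner that restrains Jun at many targets, followed the same order of groups. It was 3.35 in Unknown.3, 3.01 in Unknown.1, 2.82 in Unknown.6, 1.91 in Unknown.2 and 1.24 in Unknown 488p, all called higher. In neurons it was 0.644 in SST, 0.559 in CGRP-a, 0.409 in Heat.sen, 0.347 in Non-peptidergic, 0.241 in Peptidergic 488p and 0.222 in LTMR, and CGRP-a, Heat.sen and Non-peptidergic did not pass the filter. The largest log2 fold change in the authors' deposited table was 1.92 for Junb in Unknown.1, and the smallest was -2.21 in LTMR.

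Jund, the Jun gene that many resting cells express, had the smallest span of relative level. The range from Unknown.6 (2.11) to Low.UMI.LTMR (0.579) was 3.63-fold. The other Unknown values were 1.77 in Unknown.3, 1.67 in Unknown 488p, 1.57 in Unknown.4, 1.50 in Unknown.2 and 1.44 in Unknown.1, and the 4 listed neuron clusters lay between 0.620 and 0.675. All 13 listed clusters passed the filter for Jund, 6 higher and 7 lower. Its detection was the broadest of the set, with the gene in 81.2% of all cells. The offset limits how far a relative level can fall. In Low.UMI.LTMR, Ier2 was positive in 1.3% of cells and still had a relative level of 0.336. How far the order of genes by span follows their abundance was not tested.

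Egr1 encodes a zinc finger factor that binds GC-rich promoters and is induced with Fos. It had a relative level of 3.39 in Unknown.2, 2.95 in Unknown.3, 2.90 in Unknown.6 and 2.74 in Unknown.1. In neurons it was 0.484 in CGRP-a, 0.416 in Cold.sen, 0.396 in CGRP-n, 0.382 in SST, 0.229 in Non-peptidergic, 0.195 in LTMR and 0.167 in Peptidergic 488p, and Cold.sen, CGRP-n and Non-peptidergic did not pass the filter. The span was 20.2-fold. In Unknown 488p Egr1 was lower, at 0.541, against the 4 Unknown clusters in which it was higher.

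Ier2, a nuclear protein induced by growth factors, reached the highest relative level of the set, 3.53 in Unknown.1, with 2.43 in Unknown.6, 2.20 in Unknown.3 and 2.04 in Unknown.2. It was detected in fewer cells than any other of the 10 genes, 48.7% overall. The authors' deposited table gave Ier2 in 92.4% of SST cells, 79.6% of Non-peptidergic cells, 55.0% of LTMR cells and 22.5% of Peptidergic 488p cells, so detection differed widely among neurons. The relative levels in these 4 clusters were 0.569, 0.418, 0.356 and 0.368, of which Non-peptidergic and LTMR did not pass the filter.

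Atf3, a stress-induced factor of the ATF family and a marker of injured sensory neurons, showed another order. It was highest in the mural-marked Unknown.3 at 2.89, followed by Unknown 488p at 1.85, Unknown.2 at 1.50 (not past the filter) and Unknown.1 at 1.49. In Unknown.5 it was lower, at 0.702. SST neurons stood at 1.31 and were called higher, the only neuron cluster above the mean of all cells among the 8 listed for Atf3. In the authors' deposited table Atf3 had a log2 fold change of 0.42 in SST and was found in 96.5% of cells inside the cluster and 55.8% outside. The other neuron values were 0.706 in Non-peptidergic, 0.694 for CGRP-e, 0.648 for CGRP-n, 0.444 in Cold.sen, 0.438 in Heat.sen, 0.363 in Peptidergic 488p and 0.347 in LTMR. CGRP-n, Cold.sen, Heat.sen and LTMR did not pass the filter. The LTMR pair shows how level and detection part: the authors' deposited table gave Atf3 in 91.3% of LTMR cells with a log2 fold change of -1.57.

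Dusp1 encodes a phosphatase that switches off mitogen-activated kinases, and Btg2 an antiproliferative cofactor of messenger RNA decay. Dusp1 was called higher in Unknown.1 (relative level 2.53) and CGRP-a (1.21) only. Its values in Unknown 488p (1.57), Unknown.2 (1.27) and Unknown.3 (1.26) did not pass the filter, and in the Schwann-marked Unknown.4 it was lower at 0.656. In the authors' deposited table Dusp1 was found in 19.2% of Unknown.4 cells and 58.4% of other cells. In CGRP-a the authors' deposited table gave Dusp1 in 95.0% of cells and a log2 fold change of 0.30. Peptidergic 488p, at 0.421, was the only neuron cluster in which Dusp1 was lower.

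Btg2 was 3.50 in Unknown.6, 2.49 in Unknown.1, 2.49 in Unknown.3 and 1.50 in Unknown.2. In neurons it was 0.740 (CGRP-e), 0.718 (CGRP-n) and 0.684 in Heat.sen (not past the filter), above the 0.374 in Non-peptidergic, 0.333 in Peptidergic 488p and 0.331 in LTMR. The authors' deposited table gave Btg2 in 54.0% of LTMR cells and 56.2% of other cells, the single called pair among neurons other than Peptidergic 488p that was lower in both level and detection.

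Level and detection went opposite ways in most of the lower neuron pairs. Leaving aside Peptidergic 488p, the 9 remaining named neuron clusters had 22 pairs with a lower level, and in 21 of them the gene was detected in a larger share of cells than elsewhere. Over all named neuron clusters this held for 21 of the 32 lower pairs of these genes, and for 46.5% of the lower pairs of all genes. In Peptidergic 488p both measures were lower for all 10 genes, with 22.5% (Ier2) to 71.4% (Jund) of its cells positive in the authors' deposited table. That cluster also had 10 of the 12 RNA quality transcripts lower, as did no other named neuron cluster, where 0 to 2 were lower. In the Low.UMI clusters detection was lower for all 30 pairs, from 1.3% for Ier2 in Low.UMI.LTMR to 54.3% for Jund in Low.UMI.Pep in the authors' deposited table. Of all pairs called higher in Low.UMI clusters, 95.3% were detected in a smaller share of cells. Transcript molecules per cell are not given, and the part of depth, RNA quality or free RNA in these results was not tested.

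**Figure D3:**
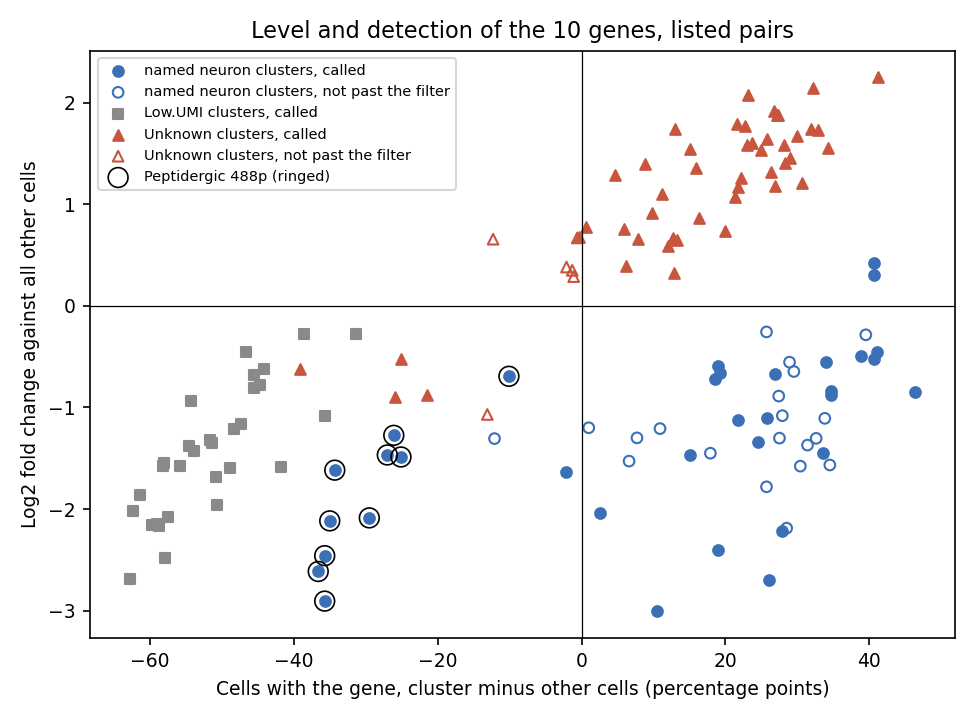
Each point is 1 of the 137 listed pairs: the difference in the percentage of positive cells between the cluster and all other cells (horizontal, percentage points) against the log2 fold change (vertical), with colour and shape for the cluster class and open symbols for pairs not past the filter. Lower pairs of named neurons lie mostly to the right of 0, while the ringed Peptidergic 488p pairs and the Low.UMI pairs lie to the left.

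Averaged over classes by their share of cells, all 10 genes had a higher relative level in Unknown than in named neuron clusters. Clusters without a listing entered at their combined value. The ratio of Unknown to named neurons was 6.75 for Fos, 6.09 for Egr1, 4.95 for Fosb, 4.34 for Ier2, 4.27 for Junb, 3.39 for Jun, 2.79 for Btg2, 2.03 for Atf3, 1.90 for Jund and 1.82 for Dusp1. For Fos every Unknown and Low.UMI cluster was listed, so its ratio uses no such assumption. The offset enters the ratio of each gene, and how far the order of genes by ratio follows their abundance was not tested. With unlisted clusters left out, an alternative chosen after seeing the data, the ratio was 6.83 for Jun and 4.25 for Btg2, which puts Jun above Fosb (5.47), Ier2 (6.03) and Junb (5.69). Among 1793 genes listed for at least 12 clusters, 38.9% had the higher level in the Unknown class, and the median ratio was 0.719. A ratio above 1.5 was found for 10 of the 10 genes and 31.4% of these genes, and one above 2.0 for 8 of the 10 and 19.0%.

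With unlisted clusters entered at their combined value, Low.UMI clusters lay below the named neurons in level for each gene, though for some by little. This order depends on those entries for some genes. For Jund the listed neuron clusters lay at 0.620 to 0.675, below its 0.724 in Low.UMI, and unlisted clusters entered at 0.910. For Jun the listed neuron clusters lay at 0.129 to 0.470, against 0.411 in Low.UMI, and unlisted clusters entered at 0.808. Both entries are shared with Unknown.5. For Atf3, CGRP-a and CGRP-z entered at 1.06, a value shared with Unknown.4 and Unknown.6, against 0.736 in Low.UMI. The ratio of named neurons to Low.UMI was 1.64 for Egr1, 1.48 for Jun, 1.44 for Fosb, 1.18 for Fos and 1.04 for Atf3, with a median of 1.32 over the set and 1.08 over the 1793 genes. In detection the classes split differently. The median share of positive cells over the 10 genes was 82.0% in named neurons, 82.0% in Unknown and 17.0% in Low.UMI, where the 1793 genes had 72.0%, 26.5% and 15.2%. Atf3 was found in 80.8% of named neurons and 62.4% of Unknown cells, and Dusp1 in 83.2% and 64.5%. Ier2 had the reverse order, with 60.7% and 73.6%. By smaller margins so did Btg2 (72.7% and 76.6%), Egr1 (78.7% and 82.2%), Junb (89.3% and 91.4%) and Fosb (80.3% and 81.9%). Fos, Jun and Jund went the way of Atf3 and Dusp1.

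**Figure D4:**
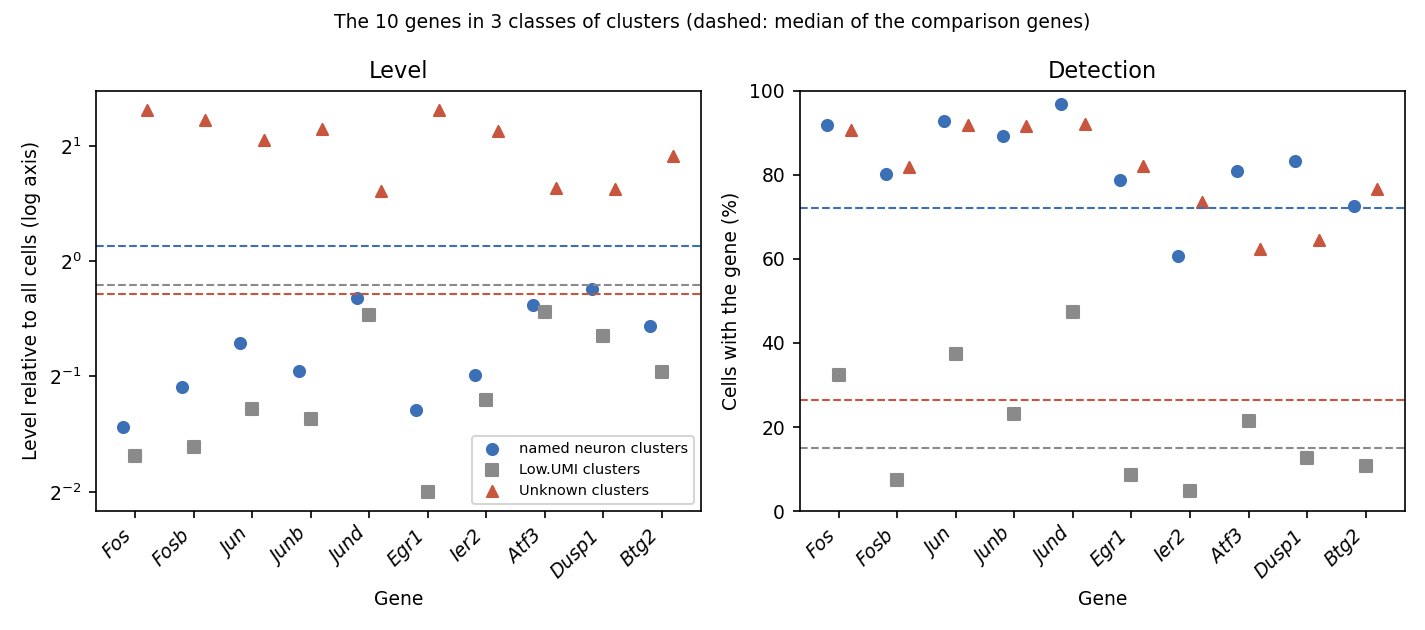
Level relative to all cells (left, log axis) and percentage of positive cells (right) of each gene in the named neuron, Low.UMI and Unknown classes, with dashed lines at the class medians of the 1793 comparison genes. Unknown lies above both other classes in level for all 10 genes, while named neurons and Unknown cells overlap in detection and Low.UMI cells lie far below.

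The 10 genes resembled each other in their pattern of log2 fold changes over clusters. For the 45 pairs of genes, Pearson's r over the 8 to 13 clusters listed for both ranged from 0.72 (Fosb and Dusp1) to 0.99 (Fos and Egr1), with a median of 0.94, and 29 pairs exceeded 0.9. The points share the same cells and the same choice of listed clusters, so these values are descriptions. Fosb and Junb reached 0.99, and Fos and Jun 0.98. Dusp1 and Atf3 stood out, with median r of 0.79 and 0.83 to the other genes, where the others had medians of 0.93 to 0.97.

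Among all genes listed with a member in at least 12 clusters, other members were often the most alike. For Fos these were Egr1 (r = 0.99), Jun (0.98) and Timp3 (0.96), an inhibitor of matrix metalloproteinases. For Fosb they were Junb, Egr1 and Ccnl1, and for Junb they were Fosb, Ier2 and Ppp1r15a, a stress-induced phosphatase subunit. Jun had Fos, Egr1 and Nfia, and Egr1 had Fos, Dnajc1 and Fosb. Ier2 was closest to Zfp36l2 (0.99), Clic4 (0.99) and Zfp36l1 (0.98), of only 91 genes that could be compared. Jund had Fndc3b, Zfp36l1 and the metallothionein gene Mt1, and Btg2 had Dlc1, Htra1 and Clk1. The values were lower for Atf3, with Rassf1 (0.91), Junb (0.91) and Fosb (0.90), and lowest for Dusp1, with Ifitm3 (0.85), Lrmda (0.77) and Ly6e (0.76).

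A list of 42 related immediate early and delayed early genes, of which 41 were in the table, is described beside the set. Of its 287 possible pairs with Unknown clusters, 40.4% were higher and 5.57% lower, where all genes had 10.2% and 27.1%. In named neurons 1.95% of 410 pairs were higher and 26.8% lower (all genes 10.9% and 6.72%), and in Low.UMI 1.63% of 123 were higher and 75.6% lower (all genes 10.9% and 20.6%). By cluster, 31 of the 41 genes were higher in Unknown.1 (18.0% of all genes), 29 in Unknown.3 (8.05%), 16 in Unknown.2 (13.0%), 15 in Unknown 488p (9.91%), 13 in Unknown.6 (7.39%) and 6 in Unknown.5 (9.67%). In Unknown.4, 6 were higher (5.21% of all genes) and 6 lower (26.4%). Over the genes listed, the median log2 fold change was 1.00 in Unknown.1, where all listed genes had a median of -0.31, and -0.93 in Peptidergic 488p, where all had -0.32. The list includes Zfp36l1 and Zfp36l2, which destabilise AU-rich messenger RNAs, and Nfkbia and Nfkbiz, which regulate NF-kB. Zfp36l1 was higher in 6 Unknown clusters and unlisted in Unknown.4. Its log2 fold changes in the authors' deposited table were 1.75 in Unknown.1, 1.51 in Unknown.6 and 1.46 in Unknown.3, and they lay between -1.23 and -1.11 in all 13 neuron and Low.UMI clusters. Nfkbia was highest in Unknown.1 (2.39) and Unknown 488p (2.04) in the authors' deposited table, so this gene was high in the macrophage-marked cluster in which Jun and Egr1 were lower.

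Of 28 kinases and factors upstream of the set, 23 were in the table. Of their 161 possible pairs with Unknown clusters, 6.83% were higher and 32.9% lower, near the 10.2% and 27.1% of all genes. In named neurons 18.7% of 230 pairs were higher (all genes 10.9%) and 6.52% lower (6.72%), and in Low.UMI 4.35% of 69 were higher (10.9%) and 36.2% lower (20.6%). Mapk10, the neuronal Jun kinase gene, was higher in 8 named neuron clusters lower in LTMR and in every Unknown and Low.UMI cluster, and not listed for Peptidergic 488p. Its log2 fold change in the authors' deposited table was 1.41 in CGRP-z and -1.52 in Unknown.1. Mapk3, which encodes the kinase ERK1, was lower in all 7 Unknown clusters, from -1.92 in Unknown.3 to -1.03 in Unknown.4 in the authors' deposited table. Camk2a, a calcium-dependent kinase gene, was highest in SST, at 1.78 in the authors' deposited table. Mef2c, an activity-dependent factor with roles in vessels and myeloid cells, was higher in 3 Unknown clusters and lower in 4. The authors' deposited table gave Mef2c log2 fold changes of 2.02 in Unknown.3, 1.84 in Unknown.1 and 1.14 in Unknown 488p, against -1.19 in Unknown.4, -1.17 in Unknown.2, -0.67 in Unknown.6 and -0.49 in Unknown.5.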

How the data were processed

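Sorted mouse dorsal root ganglion cells were sequenced as droplet single-cell 3' libraries, per the labels' protocols. The values came from the authors' deposited table of cluster markers. Per the file headers, it holds an average log2 fold change for each cluster against all other cells, the fraction of positive cells inside and outside the cluster (printed as percent), and a p-value with its adjusted form. The submitters' processing notes name Seurat. The test behind the p-values, the aligner, genome build, normalization, cell and doublet filters, depth and numbers of cells were not given in the sources used here. No deposited p-value exceeded 0.01 and no absolute log2 fold change was under 0.25. The deposited adjusted p-values equal the p-values times 32285.

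Samples were grouped by title, but no value belongs to a sample, so no test, SD or n was attached. The share of cells w in each cluster was found by least squares from the 6748 genes whose fractions differed by 5 percentage points or more (residual 0.0274, against 0.0289 from rounding alone). With F the linear fold change, the relative level is F / (wF + 1 - w). Its weighted sum over the clusters was 0.999988 to 1.00014 for the 34 genes listed in all clusters. The offset within the authors' fold change, whose size is not given, compresses relative levels, most for genes of low level. Scripts (Python 3.11.15, numpy 2.4.6, pandas 2.3.3) were tested on simulated data. Named were all 10 members, up to 4 genes of each other functional list (those listed for most clusters) and the 3 genes most like each member by Pearson correlation over at least 12 shared clusters. The members and lists were chosen with earlier results of these data known. Alternatives were other thresholds, weights and cluster choices and Spearman correlation.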

Additional observations from a re-analysis of the deposited data

How the results depend on the processing

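Depth per cell is unknown, so how far detection limits a value could not be worked out. No paired analysis was possible because the table has no columns for samples or replicates, and leaving out a replicate was likewise not possible. At an absolute log2 fold change of at least 1, the lower pairs in Unknown clusters went from 4 to 0 and those in named neurons from 32 to 20. Requiring the share of cells to differ in the same direction left 11 of the latter 32. The 2 higher pairs in named neurons became 0 at a minimum of 0.5 and 0 at 1. The 43 higher Unknown pairs became 31 to 42 and the 30 lower Low.UMI pairs 22 to 30 under the 4 alternatives. With clusters weighted equally, the median relative level of the genes was 0.554 in named neurons (0.564 by share of cells), 0.384 in Low.UMI (0.423) and 1.81 in Unknown (2.13). It was 0.591 in named neurons without Peptidergic 488p and 2.22 in Unknown without Unknown 488p. With clusters that were not listed left out, an alternative chosen after seeing the data, it was 0.449 and 2.34, and the ratio of Unknown to named neurons went from 3.39 to 6.83 for Jun and from 2.79 to 4.25 for Btg2. All 10 genes kept the higher level in Unknown, against named neurons, under these 5 class alternatives. Of the 30 genes named as most alike, 12 were also among the first 3 by Spearman correlation, and 0 of the 3 for Atf3 when at least 16 shared clusters were required, which could not be done for the other 9 members.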

Other observations

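Among 14 genes of heat shock and protein folding, also known to respond to tissue dissociation, 12.2% of 98 possible pairs with Unknown clusters were higher and 52.0% lower, where all genes had 10.2% and 27.1%. In named neurons 13.6% of 140 pairs were higher and 13.6% lower (all genes 10.9% and 6.72%), and in Low.UMI clusters 42.9% of 42 were higher and 28.6% lower (all genes 10.9% and 20.6%). The chaperones Hsp90ab1 and Hspa8 were lower in all 7 Unknown clusters and higher in all 3 Low.UMI clusters. The log2 fold changes of Hsp90ab1 in the authors' deposited table were -1.63 in Unknown 488p and 0.78 in Low.UMI.LTMR. Dnajb1, a stress-inducible co-chaperone, was higher in Unknown.2 and Unknown.1, at 1.50 and 0.42 in the authors' deposited table, and lower in 7 named neuron clusters. Hspb1, a small heat shock protein, was higher in Unknown.3, Unknown.1 and Unknown.5 and lower in the other 4 Unknown clusters, with -2.32 in Unknown 488p, -2.17 in Unknown.2, -1.88 in Unknown.4 and -0.75 in Unknown.6 in the authors' deposited table.

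Of 20 nerve injury genes 15 were in the table. Some are also on the list of related immediate early genes or mark a neuron cluster, and a part of injury was not tested. In named neurons 23.3% of the 150 possible pairs of the 15 genes were higher and 12% lower (all genes 10.9% and 6.72%). In Low.UMI clusters 13.3% of 45 were higher and 46.7% lower (all genes 10.9% and 20.6%), and in Unknown clusters 9.52% of 105 were higher, near the 10.2% of all genes, and 40.0% lower (27.1%). Gap43, a growth cone gene, was higher in the 4 CGRP clusters, Peptidergic 488p and Low.UMI.Pep, with log2 fold changes of 1.51 in Low.UMI.Pep, 1.42 in CGRP-e and 1.15 in Peptidergic 488p in the authors' deposited table. The neuropeptide gene Gal was higher in the 4 CGRP clusters, Cold.sen and Low.UMI.Pep (1.39 in the authors' deposited table), and lower in the other 11 clusters listed, with -1.96 in SST in the authors' deposited table. The tubulin-binding gene Stmn4 had 1.21 in CGRP-a and Cacna2d1, a calcium channel subunit gene, 1.58 in CGRP-z in the authors' deposited table. Atf3 was higher in SST and lower in CGRP-e, and its value in CGRP-n did not pass the filter. CGRP-a and CGRP-z were not listed for Atf3. Together with Unknown.4 and Unknown.6 they had a combined relative level of 1.06.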
